A study of Mus musculus with 2 samples.

Results

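The genes described here encode ion channels, their auxiliary subunits and aquaporins. They were chosen by name alone, as the genes whose symbol on the array begins with the stem of a channel family (potassium, calcium, chloride, TRP, Piezo, HCN, glutamate, GABA, glycine, nicotinic and P2X receptor channels, anoctamins, ryanodine receptors, Orai, Stim and aquaporins). The name rule found 114 genes, read by 127 probes, among 11484 genes measured. Symbols starting with the stem of the voltage-gated sodium channels or of the inositol trisphosphate receptors were searched for too, and these families are not analysed here.

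Gene expression was compared between Small Molecule Generated Stem Cells, at passage 5 in ES medium, and Parental Cells, at passage 1 in FBS medium, on a 1-colour whole-genome oligonucleotide microarray. Both samples were mouse cells of embryonic stage and strain C57/ICR, and ES medium is the medium used for embryonic stem cells. The labels name neither the small molecule nor the cell type of the parental cells. One column of normalised intensities per sample was analysed, although the design text of the series speaks of 3 replicates, so every difference below describes these 2 samples and has no replicate check, and treatment, medium and passage cannot be told apart.

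Ion channels are membrane proteins that let ions pass down their gradients, and aquaporins do the same for water and, in some cases, glycerol. Potassium channels hold the membrane potential negative, calcium channels and calcium release channels turn electrical or chemical signals into calcium signals, and chloride channels and aquaporins set cell volume and fluid transport. Auxiliary subunits form no pore and change the gating or surface level of the subunits that do. In pluripotent cells and in fibroblast-like cells, which do not fire as neurons or muscle cells do, channels are known mainly for volume control, calcium entry, mechanical sensing and the membrane potential during the cell cycle.

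Marker genes of several cell types were read in both samples, from lists chosen with earlier results of these data known. Of 10 pluripotent cell markers 9 were measured and 8 were 2-fold or more higher in the stem cells, with summed intensities of 111709 in the stem cells and 763 in the parental cells. The exception was Nanog, at 94.7 in the stem cells and 77.7 in the parental cells. All 5 measured mesenchymal markers of 12 listed were lower, with sums of 769 in the stem cells and 138645 in the parental cells. Markers of other cells moved as well. For scale, of all genes above the floor described below, 22.1% were 2-fold or more higher and 22.6% lower. Of 12 measured neuron markers 7 were higher and 1 lower (sums of 9814 in the stem cells and 2798 in the parental cells), and of 8 measured epithelial markers 5 were higher and 1 lower (11035 in the stem cells and 3166 in the parental cells). Of 9 measured macrophage and leukocyte markers 5 were lower and 1 higher (13331 in the stem cells, most of it from Laptm5 at 12204, and 8326 in the parental cells). Among 5 measured muscle and heart markers only Tnni3 passed 2-fold, at 609 in the stem cells and 52.9 in the parental cells. No marker was listed at 0. In such bulk samples fewer cells of a type and less RNA per cell cannot be told apart, and the part of these other cell types in the channel differences was not tested.

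A floor was set at the 25th percentile of each sample, 93.4 in the stem cells and 93.8 in the parental cells, and genes below it on both sides are called dim here and get no fold. Dim genes made up 41 of the 114 channel genes (36.0%), against 1701 of all 11484 genes (14.8%). Whether a gene passes the floor depends on its probe as well as its RNA. The other 73 channel genes passed the floor in 1 or both samples, and 17 of them (23.3%) were 2-fold or more higher in the stem cells and 13 (17.8%) were 2-fold or more lower. Over the 9783 genes of the array that passed it, 22.1% were higher and 22.6% lower by the same rule, so the shares of channel genes lay near those of all genes. The median log2 difference was 0.14 over the 114 channel genes and 0.07 over all genes, and 0.00 for both with readings below the floor raised to it. It was 0.47 over the 73 channel genes alone, a set chosen by a filter that favours large differences. The same median over the 9783 genes is not given here. Some difference above 0, of whatever size, was read in 63.2% of the channel genes and in 53.2% of all genes.

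Where a gene was below the floor on 1 side, only a minimum fold is given, its higher reading divided by the floor on the dim side. This was the case for 4 of the 17 higher and 6 of the 13 lower genes. With readings below the floor raised to it, 15 of these 73 channel genes (20.5%) were higher and 13 (17.8%) lower by 2-fold, against 20.4% and 20.8% of the 9783 genes. At 4-fold or more 6 of the 73 (8.22%) were higher and 5 (6.85%) lower, against 6.31% and 9.14% of the 9783 genes. Grin2c and Kcnmb4 passed 2-fold without the bound and missed it with the bound.

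**Figure D1:**
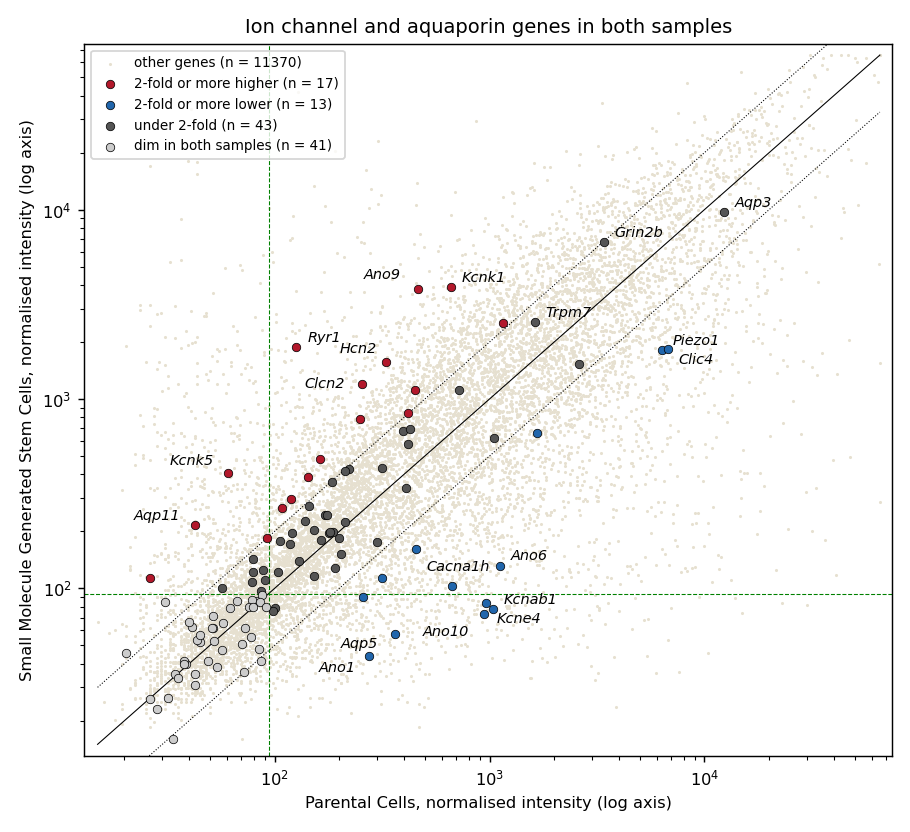
Normalised intensity of each gene in the Small Molecule Generated Stem Cells (vertical log axis) against the Parental Cells (horizontal log axis), 1 sample each; dotted lines mark 2-fold, dashed lines the floors of 93.4 and 93.8. Red points are the 17 channel genes at 2-fold or more higher, blue points the 13 lower, dark grey the 43 under 2-fold and light grey the 41 dim ones, and the channel genes spread to both sides of the line of equality.

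The promoters of the genes with the largest differences are shown. Promoters take part in switching genes on or off, and their part in these differences was not tested. CG dinucleotides, the sites of DNA methylation in mammals, differ widely in number between the promoters shown. Matched by gene identifier, 83 of the 114 channel genes had a promoter in the RefSeq table used here (GRCm38.p6). Each line gives the 250 bases before the annotated start, 5′ to 3′ on the strand of the gene, with CG dinucleotides in capitals. They belong to the 3 higher and the 3 lower genes with the largest bounded differences among those with 1 start in the table. Ryr1 (chr7:29125152-29125401, minus strand), Kcnk1 (chr8:125994852-125995101, plus strand) and Hcn2 (chr10:79716384-79716633, plus strand) were higher in the stem cells, and Kcne4 (chr1:78816661-78816910, plus strand), Ano10 (chr9:122294424-122294673, minus strand) and Ano6 (chr15:95790593-95790842, plus strand) were lower.
Ryr1: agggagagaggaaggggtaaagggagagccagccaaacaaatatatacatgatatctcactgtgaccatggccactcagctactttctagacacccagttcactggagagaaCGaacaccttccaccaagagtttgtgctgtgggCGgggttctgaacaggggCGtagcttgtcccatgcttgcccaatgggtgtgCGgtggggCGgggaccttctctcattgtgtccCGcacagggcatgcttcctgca
Kcnk1: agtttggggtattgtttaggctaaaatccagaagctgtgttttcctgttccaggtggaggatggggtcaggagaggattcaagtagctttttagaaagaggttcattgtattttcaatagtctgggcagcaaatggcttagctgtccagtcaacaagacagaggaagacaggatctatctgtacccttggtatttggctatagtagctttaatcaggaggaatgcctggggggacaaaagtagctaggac
Hcn2: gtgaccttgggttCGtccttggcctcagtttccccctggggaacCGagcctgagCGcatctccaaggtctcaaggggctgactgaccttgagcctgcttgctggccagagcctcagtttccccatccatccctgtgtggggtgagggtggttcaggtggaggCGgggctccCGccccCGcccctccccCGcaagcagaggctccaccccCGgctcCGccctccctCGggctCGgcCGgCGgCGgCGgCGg
Kcne4: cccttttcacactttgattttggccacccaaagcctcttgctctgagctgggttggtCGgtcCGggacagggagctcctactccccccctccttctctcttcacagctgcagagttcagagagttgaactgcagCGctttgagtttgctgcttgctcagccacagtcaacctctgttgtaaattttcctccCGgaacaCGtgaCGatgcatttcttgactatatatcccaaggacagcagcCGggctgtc
Ano10: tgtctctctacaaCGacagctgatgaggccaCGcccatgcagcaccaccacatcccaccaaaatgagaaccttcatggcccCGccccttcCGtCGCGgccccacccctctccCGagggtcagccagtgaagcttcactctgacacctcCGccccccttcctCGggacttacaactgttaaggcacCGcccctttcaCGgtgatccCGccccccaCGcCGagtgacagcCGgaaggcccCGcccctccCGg
Ano6: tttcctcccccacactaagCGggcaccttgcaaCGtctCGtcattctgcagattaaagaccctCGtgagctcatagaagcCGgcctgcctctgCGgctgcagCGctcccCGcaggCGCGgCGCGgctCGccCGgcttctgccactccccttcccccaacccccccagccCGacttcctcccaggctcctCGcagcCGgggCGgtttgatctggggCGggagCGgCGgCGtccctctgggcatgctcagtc

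Among the higher genes the printed stretch of Ryr1 held 6 CG dinucleotides, that of Kcnk1 held 0 and that of Hcn2 held 16. Among the lower genes Kcne4 had 7, Ano10 had 17 and Ano6 had 22. Over the whole 300 bases of the table, which run 50 bases past the start, Kcnk1 had 10, so that its count depends on the window. The median over these 300 bases number was 15 in the 14 higher genes with a promoter, 20.5 in the 11 lower ones, 15.5 in 29 dim ones and 18 in all 9162 measured genes with a promoter, where a gene with several starts was given its median. A count of 10 or more was reached in 71.4% of the higher, 63.6% of the lower and 74.0% of all genes.

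Short motifs were searched on both strands of the same 300 bases. A gene with several starts counted if any of its starts had the motif, so more bases were searched for it. Such genes were Clcn5 among the higher ones and Clcn4, Kcnab1, Kcnip3 and Trpv2 among the lower ones. Clcn5, Kcnab1 and Trpv2 are among the TATAAA genes below, and Clcn4 and Kcnab1 among the CACGTG genes. The Sp1-type GC box GGGCGG was found in 11 of 14 higher genes, 9 of 11 lower genes and 62.3% of all genes. The E-box CACGTG was in 1 higher gene, 4 lower genes and 11.02% of all genes, and TATAAA was in 1 higher gene, 3 lower genes and 10.6% of all genes. AAGGTCA, a core motif bound by orphan nuclear receptors such as ESRRB, was in 2 higher genes, 0 lower genes and 4.28% of all genes. CCAAT was in 4 higher genes, 2 lower genes and 42.5% of all genes. TGAGTCA, the AP-1 motif, was in 0 higher genes, 1 lower gene and 5.01% of all genes, and ATGCAAA, part of the octamer, was in 0 higher genes, 0 lower genes and 4.37% of all genes. None of these motifs contains another on either strand, a match describes the letters only, and no test was made. In the printed stretches, Hcn2 carried AAGGTCA on the opposite strand, with the leftmost base of the match 249 and 168 bases before the start, and Kcne4 carried CACGTG with its leftmost base 54 bases before it.

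Some potassium channels that leak at rest were among the higher genes. The tandem-pore family supplies the background potassium current of many cells. Kcnk1, a weakly conducting member of this family, was at 3881 in the stem cells and 663 in the parental cells, 5.86-fold higher. Kcnk5, a member opened by alkaline pH and known in kidney, was at 409 in the stem cells and 60.4, below the floor, in the parental cells, and so at least 4.36-fold higher. Of the 7 measured genes of the family 3 were dim. Of the other 4, 2 were higher and 0 lower by 2-fold, against 22.1% and 22.6% of the 9783 genes. These 4 genes are too few to read a trait of the family from such counts. Kcnk6, a relative of Kcnk1, was at 676 in the stem cells and 397 in the parental cells, a 1.70-fold difference.

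The auxiliary subunits of voltage-gated potassium channels stood on the other side. Of 4 measured subunits 3 (75.0%) were 2-fold or more lower in the stem cells and none was higher. Over the 9783 genes 22.6% were lower and 22.1% higher. Each of the 4 subunits was read by 1 probe. Kcnab1, a cytoplasmic beta subunit that speeds the inactivation of Shaker-type channels, was at 77.8 in the stem cells and 1034 in the parental cells, at least 11.1-fold lower. Kcne4, a single-span subunit that can inhibit KCNQ1, was at 83.7 in the stem cells and 965 in the parental cells, at least 10.3-fold lower. Kcnip3, a calcium-binding protein that serves A-type channels and is also known as a transcriptional repressor, was at 90.6 in the stem cells and 258 in the parental cells, at least 2.76-fold lower. In all 3 genes the stem cell value lay under the floor, so that the size of the difference has no upper limit here. Kcnab2, the other beta subunit, was at 128 in the stem cells and 192 in the parental cells, a 1.5-fold difference.

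Of 17 measured pore subunit genes of voltage-gated potassium channels 8 were dim. Of the other 9, 2 (22.2%) were higher, 1 (11.1%) was lower and 6 differed by less than 2-fold. Over the 9783 genes 22.1% were higher and 22.6% lower. Kcnh3, an ether-a-go-go-like channel of forebrain neurons, was at 387 in the stem cells and 142 in the parental cells, 2.72-fold higher. Kcnc4, a fast Shaw-type channel, was at 298 in the stem cells and 119 in the parental cells, 2.49-fold higher. Kcnb2, a delayed rectifier, went the other way, at 162 in the stem cells and 454 in the parental cells, 2.80-fold lower. Kcnh7, a channel of the ether-a-go-go-related group, was at 432 in the stem cells and 315 in the parental cells.

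The calcium-activated and inward rectifier genes gave little signal. Of 4 calcium- or sodium-activated genes 2 were dim, among them Kcnma1, the pore of the large-conductance BK channel, at 51.0 in the stem cells and 70.8 in the parental cells. Kcnmb4, the BK subunit of neurons, was at 185 in the stem cells and 92.6 in the parental cells, at least 1.98-fold higher. Kcnn4, the intermediate-conductance channel of blood cells and epithelia, was at 116 in the stem cells and 153 in the parental cells as the mean of its probes. Of the 4 inward rectifiers 3 were dim, and Kcnj4 was at 575 in the stem cells and 419 in the parental cells, a 1.37-fold difference.

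Voltage-gated calcium channel genes differed in opposite directions. Cacna1b, the pore of N-type channels, which trigger transmitter release at synapses, was at 1110.1 in the stem cells and 449 in the parental cells, 2.47-fold higher. Cacna1h, the pore of a low-voltage-activated T-type channel, was at 103 in the stem cells and 665 in the parental cells, 6.45-fold lower. Cacna1a, the P/Q-type pore, was at 625 in the stem cells and 1050.0 in the parental cells, a 1.68-fold difference. Cacna1h thus lay near the floor in the stem cells only, while Cacna1b was well above it in both samples. Cacna1i, another T-type pore gene, was at 96.8 in the stem cells and 86.4, below the floor, in the parental cells. Of 5 auxiliary subunit genes 4 were dim, and the remaining one, Cacng7, which also serves AMPA receptors, was at 694 in the stem cells and 425 in the parental cells.

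Hcn2, a pacemaker channel opened by hyperpolarization and by cyclic AMP, was the single gene of its family measured. It was at 1566 in the stem cells and 331 in the parental cells, 4.73-fold higher. Of 11 neuron markers above the floor in 1 or both samples 7 (63.6%) were higher and 1 (9.09%), Map2, was lower. Over the 9783 genes 22.1% were higher and 22.6% lower. A link between Hcn2, read by 1 probe, and these markers was not tested.

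**Figure D2:**
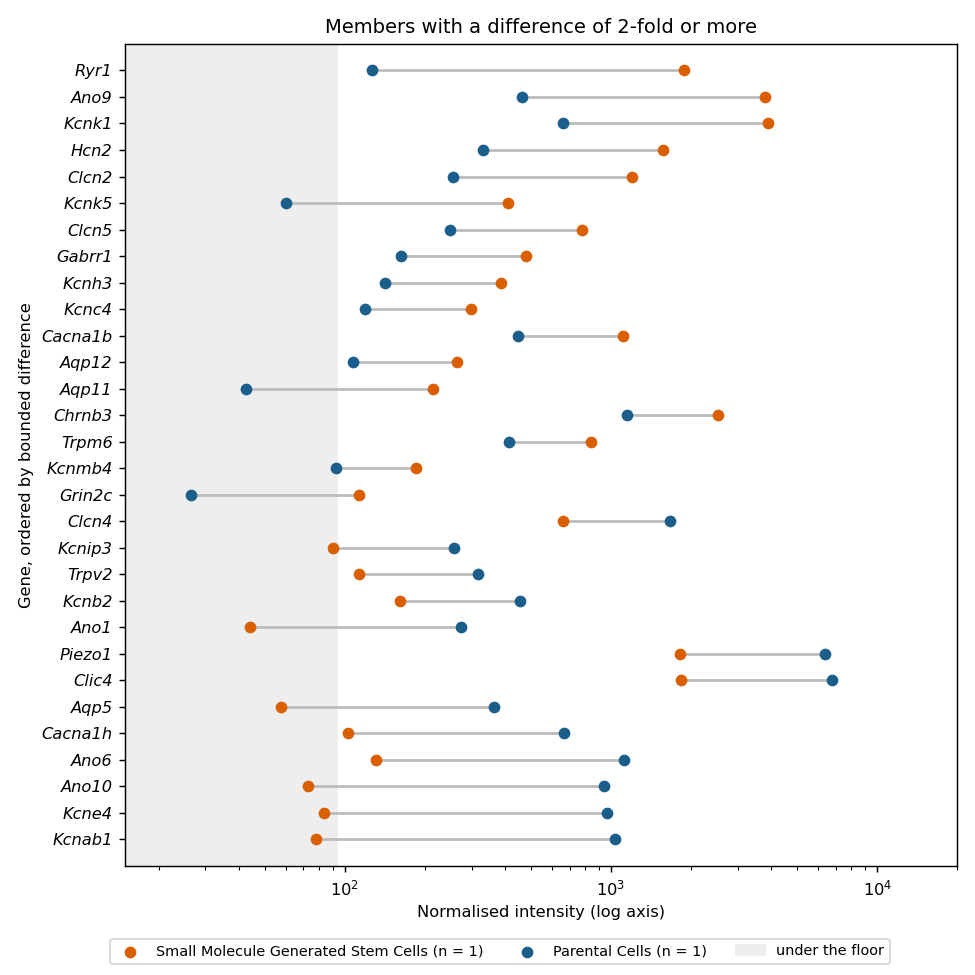
Normalised intensity (horizontal log axis) of the 30 channel genes at 2-fold or more, 1 row a gene, in the Small Molecule Generated Stem Cells (orange) and the Parental Cells (blue), 1 sample each; grey shading marks values under the floor. Ryr1 is at the top, with 1881 in the stem cells and 126 in the parental cells, and Kcnab1 at the bottom, with 77.8 in the stem cells and 1034 in the parental cells.

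The largest fold among channel genes above the floor in both samples was that of Ryr1, which encodes the ryanodine receptor that releases calcium from the sarcoplasmic reticulum of skeletal muscle. Ryr1 was at 1881 in the stem cells and 126 in the parental cells, 14.9-fold higher, read by 1 probe. Its paralog Ryr3 was dim in both samples, at 41.3 in the stem cells and 86.4 in the parental cells. Of the muscle and heart markers, Des was at 364 in the stem cells and 335 in the parental cells, and Myog was at 89.1 in the stem cells and 101 in the parental cells, while Tnni3 was at least 6.49-fold higher.

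Store-operated calcium entry, in which an endoplasmic reticulum sensor opens a plasma membrane pore when stores run low, differed by less than 2-fold in both genes measured. Orai1, the pore, was at 195 in the stem cells and 120.0 in the parental cells, a 1.62-fold difference. Stim1, the sensor, averaged 152 in the stem cells and 204 in the parental cells over its 2 probes. The brighter Stim1 probe was at 495 in the stem cells and 632 in the parental cells, and the other was dim. Saraf, which switches store-operated entry off and was on a separate list of channel partners, was at 354 in the stem cells and 3661 in the parental cells, 10.3-fold lower.

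Among mechanical and TRP channels only Piezo1 and Trpm7 read above 1000 in either sample. Piezo1, a cation channel opened by membrane stretch, was at 1809 in the stem cells and 6347 in the parental cells, 3.51-fold lower and far above the floor in both. Trpv2, a cation channel of the TRPV family, was at 113 in the stem cells and 316 in the parental cells, 2.79-fold lower. Trpm6, a channel kinase of magnesium transport, was at 842 in the stem cells and 416 in the parental cells, 2.03-fold higher, and short of 2-fold at log2 0.85 after lowess centring and 0.94 with an offset of 50. Its close relative Trpm7 was at 2547 in the stem cells and 1624 in the parental cells, a 1.57-fold difference. Of the 13 TRP and Piezo genes 7 were dim.

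Of 11 chloride channel and anoctamin genes, none of them dim, 3 (27.3%) were higher and 5 (45.5%) lower, against 22.1% and 22.6% of the 9783 genes. Anoctamins are a family of calcium-activated chloride channels and lipid scramblases, and 3 of its 5 measured genes were lower. Ano10 was at 72.8 in the stem cells and 944 in the parental cells, at least 10.1-fold lower. Ano6, the scramblase that exposes phosphatidylserine in activated platelets, was at 131 in the stem cells and 1115 in the parental cells, 8.49-fold lower. Ano1, the calcium-activated chloride channel of secretory epithelia, was at 44.1 in the stem cells and 274 in the parental cells, at least 2.94-fold lower. Ano9 went the other way, at 3792 in the stem cells and 464 in the parental cells, 8.17-fold higher, and Ano7 was at 224 in the stem cells and 212 in the parental cells. Each of the 5 anoctamin genes was read by 1 probe.

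The ClC family divided as well. Clcn2, a plasma membrane chloride channel, was at 1195 in the stem cells and 254 in the parental cells, 4.70-fold higher. Clcn5, an endosomal chloride-proton exchanger, was at 781 in the stem cells and 249.6 in the parental cells, 3.13-fold higher. Clcn4, its close relative, was at 661 in the stem cells and 1669 in the parental cells, 2.52-fold lower. Clic4, a protein of the chloride intracellular channel family that also moves between cytosol and nucleus, was at 1833 in the stem cells and 6746 in the parental cells, 3.68-fold lower. It was the only gene of the 30 with more than 1 probe, and both probes were lower, at 519 and 6472 in the stem cells, against 3001 and 15164 in the parental cells.

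**Figure D3:**
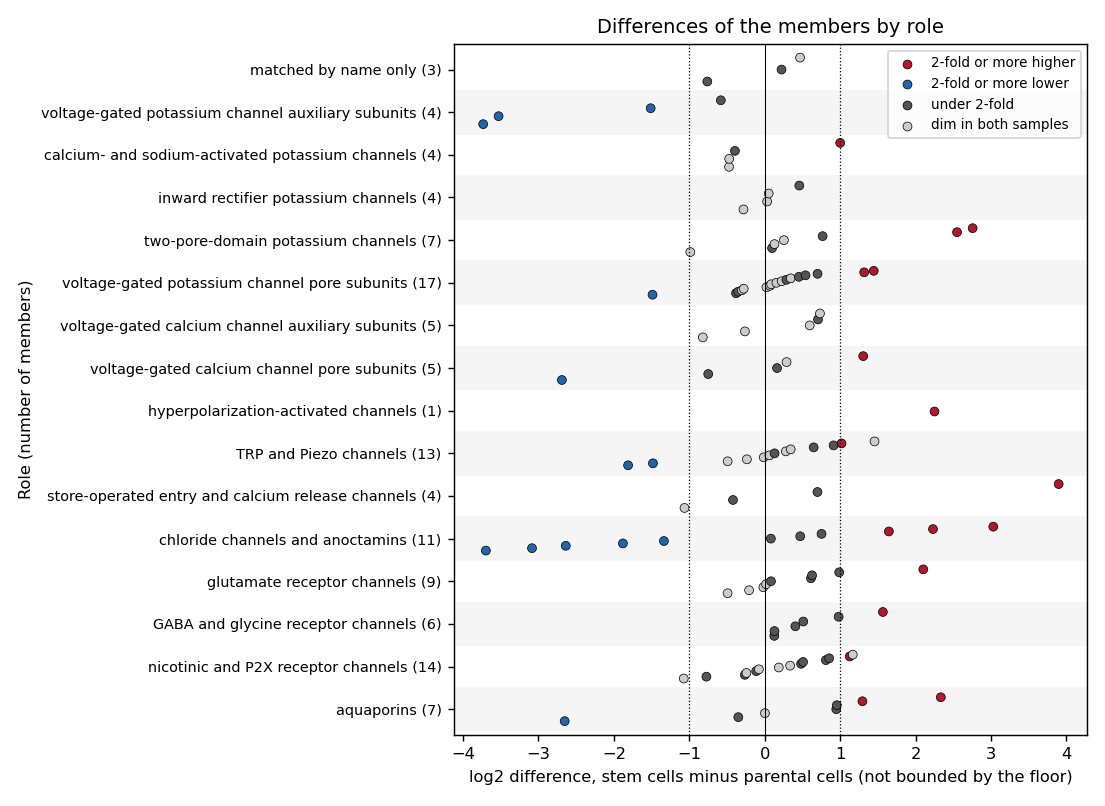
log2 difference, stem cells minus parental cells (horizontal axis), of every one of the 114 channel genes, in rows by role with the number of genes in brackets; each point is 1 gene and dotted lines mark 2-fold. Differences are not bounded by the floor, and points of dim genes (light grey) carry no fold. The row of chloride channels and anoctamins has 3 points above and 5 below 2-fold.

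Of the 29 genes of glutamate, GABA, glycine, nicotinic and P2X receptor channels 10 were dim, and of the other 19, 3 were higher (15.8%, and 2 with the bound) and 0 lower by 2-fold, against 22.1% and 22.6% of the 9783 genes. The lower readings included P2rx4, at 175 in the stem cells and 298 in the parental cells, a 1.71-fold difference. Grin2b, an NMDA receptor subunit, gave a strong signal in both samples, at 6752 in the stem cells and 3404 in the parental cells, a 1.98-fold difference just short of 2-fold. Grin2c, another NMDA receptor subunit, was at 114 in the stem cells and 26.4 in the parental cells, under the floor, so that only a difference of at least 1.21-fold can be stated. Grik5, a kainate receptor subunit, was at 1119.7 in the stem cells and 725 in the parental cells. Of 6 GABA and glycine receptor genes only Gabrr1, a rho subunit known from retina, passed 2-fold, at 480.1 in the stem cells and 162 in the parental cells, 2.96-fold higher.

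Chrnb3, a nicotinic acetylcholine receptor subunit, was at 2518 in the stem cells and 1153 in the parental cells, 2.18-fold higher, and short of 2-fold at log2 0.96 after lowess centring. With probes averaged, no ATP-gated P2X gene passed 2-fold. P2rx7, the receptor of macrophages that opens at high ATP, averaged 143 in the stem cells and 79.0 in the parental cells. Its brighter probe was at 623 in the stem cells and 236 in the parental cells, 2.64-fold higher, and the other probe was dim. P2rx5 was at 339.6 in the stem cells and 408 in the parental cells. Of 9 measured macrophage and leukocyte markers 5 (55.6%) were lower in the stem cells and 1 (11.1%), Laptm5, was higher. Over the 9783 genes 22.6% were lower and 22.1% higher. A link between P2rx7 and these markers was not tested.

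Aquaporins were measured by 7 genes, of which 1, Aqp7, was dim as the mean of its 3 probes. The brightest Aqp7 probe was at 187 in the stem cells and 132 in the parental cells. Of the other 6, 2 (33.3%) were higher and 1 (16.7%) lower, against 22.1% and 22.6% of the 9783 genes. Aqp3, an aquaglyceroporin of skin and other epithelia, gave a strong signal in both samples, at 9675 in the stem cells and 12329.6 in the parental cells, a 1.27-fold difference. Aqp11, an intracellular aquaporin of the endoplasmic reticulum, was at 215 in the stem cells and 42.7 in the parental cells, at least 2.30-fold higher. Aqp12, an aquaporin of pancreatic acinar cells, was at 265 in the stem cells and 108 in the parental cells, 2.45-fold higher, and just short of 2-fold with an offset of 50. In the opposite direction Aqp5, the aquaporin of salivary gland and lung epithelium, was at 57.7 in the stem cells and 362 in the parental cells, at least 3.88-fold lower. Aqp2, the vasopressin-regulated channel of the kidney, was at 429 in the stem cells and 222 in the parental cells, a 1.93-fold difference.

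Trpc4ap, matched by its name and no channel itself, was at 1535 in the stem cells and 2602 in the parental cells. Such name-only matches numbered 3, and none passed 2-fold. The 27 other genes above the floor in 1 or both samples that are not named by size, name or brightness had log2 differences from -0.77 to 0.98. Of these 27, 22 were above 0, beside 53.2% of all genes, dim ones and those at 2-fold or more included. The share over the measured genes of the array under 2-fold is not given here. The lowest reading among the 27 was 57.0, below the floor. The genes nearest to 2-fold on the inside were Kcnmb4 and Trpm6, with log2 differences of 1.00 and 1.02, and those nearest on the outside were Grin2b and Gabrq, with 0.99 and 0.98.

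Probe error limits how firmly single genes can be read. Of the 114 channel genes 102 had 1 probe. Over 613 genes of the whole array with 2 probes above the floor, single probes scattered around the mean of their gene with an SD of 1.05 in log2 difference, or 2.07-fold. Among the 12 channel genes with more than 1 probe, the gap between their highest and lowest probe ran from 0.11 to 1.63 on the log2 scale. Only Clic4 had every probe above the floor in both samples. The probes of Kcnn4 were at 131 and 103 in the stem cells, against 273 and 85.2 in the parental cells, the last of these below the floor. Those of P2rx3 were at 504 and 67.2 in the stem cells, against 309.7 and 128 in the parental cells, with 67.2 below the floor. With the brightest probe of each gene in place of the mean, P2rx7 and Cacnb1 would count as higher and Kcnn4 as lower by 2-fold, Cacnb1 without the bound only, since its parental value was below the floor.

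**Figure D4:**
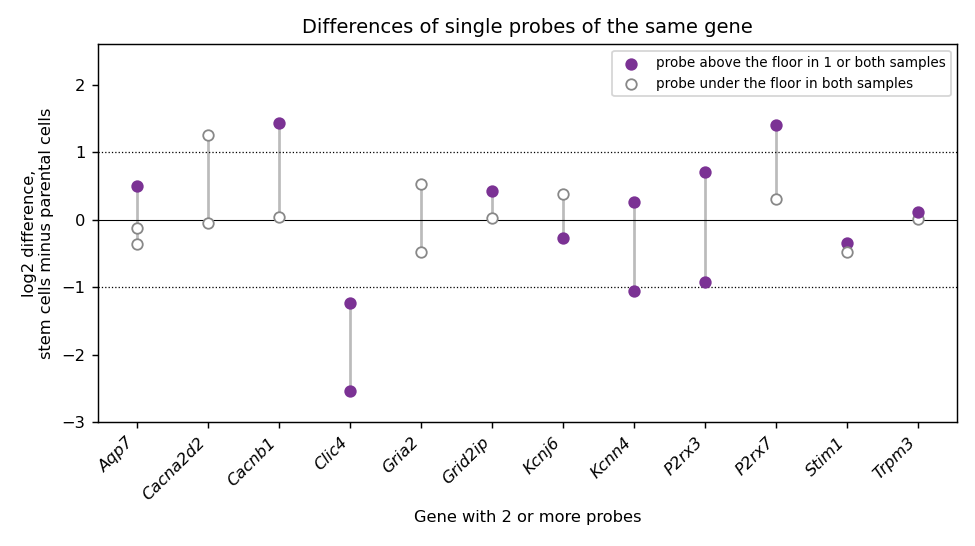
log2 difference, stem cells minus parental cells (vertical axis), of each probe of the 12 channel genes with more than 1 probe; filled points are probes above the floor in 1 or both samples, open points are dim probes, and dotted lines mark 2-fold. The Clic4 probes both lie below the lower line, whereas those of P2rx3 and Kcnn4 lie on either side of 0.

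Lists of channels outside the name rule, of ion pumps and of channel partners were read beside the same shares of all genes, 22.1% higher and 22.6% lower. Of 30 measured genes on the list of other channels 12 were dim, and 4 of the other 18 (22.2%) were higher and 4 (22.2%) lower, with a median log2 difference of 0.00, beside 0.07 over all genes. With the bound 4 (22.2%) were higher and 3 (16.7%) lower, against 20.4% and 20.8% of the 9783 genes. Mcu, at 42.7 in the stem cells and 95.6 in the parental cells, passed 2-fold only without the bound. Asic1, a proton-gated sodium channel, was at 378 in the stem cells and 46.9 in the parental cells, at least 4.04-fold higher. Lrrc8d and Lrrc8a, which build the volume-regulated anion channel together, were at 2076 and 3689 in the stem cells, against 953 and 7756 in the parental cells, so that the one was 2.18-fold higher and the other 2.10-fold lower. Tmem63b and Tmem63a, relatives of plant stretch-activated channels, also parted, at 1304 and 1212 in the stem cells, against 604 and 2832 in the parental cells. Pkd1, the polycystin of primary cilia, was at 1173 in the stem cells and 3001 in the parental cells, 2.56-fold lower.

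Ion pumps and sodium-calcium exchangers had 2 dim genes of 11 measured, and 3 of the other 9 (33.3%) were higher and 2 (22.2%) lower, with a median log2 difference of 0.17. A pair of beta subunits of the sodium pump differed in direction. Atp1b2 was at 462 in the stem cells and 133 in the parental cells, 3.47-fold higher. Atp1b3 was at 2117 in the stem cells and 4956 in the parental cells, 2.34-fold lower. Slc8a3 and Slc8a1, both sodium-calcium exchangers, were at 307 and 55.9 in the stem cells, against 139 and 319 in the parental cells, 2.21-fold higher and at least 3.42-fold lower. Atp2a3, a calcium pump of the endoplasmic reticulum, was at 213 in the stem cells and 78.3 in the parental cells, at least 2.27-fold higher.

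Of 28 measured channel partners and anchors 3 were dim, and 2 of the other 25 (8.0%) were higher and 6 (24%) lower, with a median log2 difference of 0.07. Micu2, a regulator of the mitochondrial calcium uniporter, was at 602 in the stem cells and 8439 in the parental cells, 14.01-fold lower. Gphn, the scaffold of inhibitory synapses, was at 189 in the stem cells and 1023 in the parental cells, 5.42-fold lower. Rapsn, which clusters nicotinic receptors at the muscle endplate, was at 331 in the stem cells and 79.7 in the parental cells, at least 3.53-fold higher. Stac2, an adaptor of calcium channels, was at 714 in the stem cells and 292 in the parental cells, 2.44-fold higher.

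**Figure D5:**
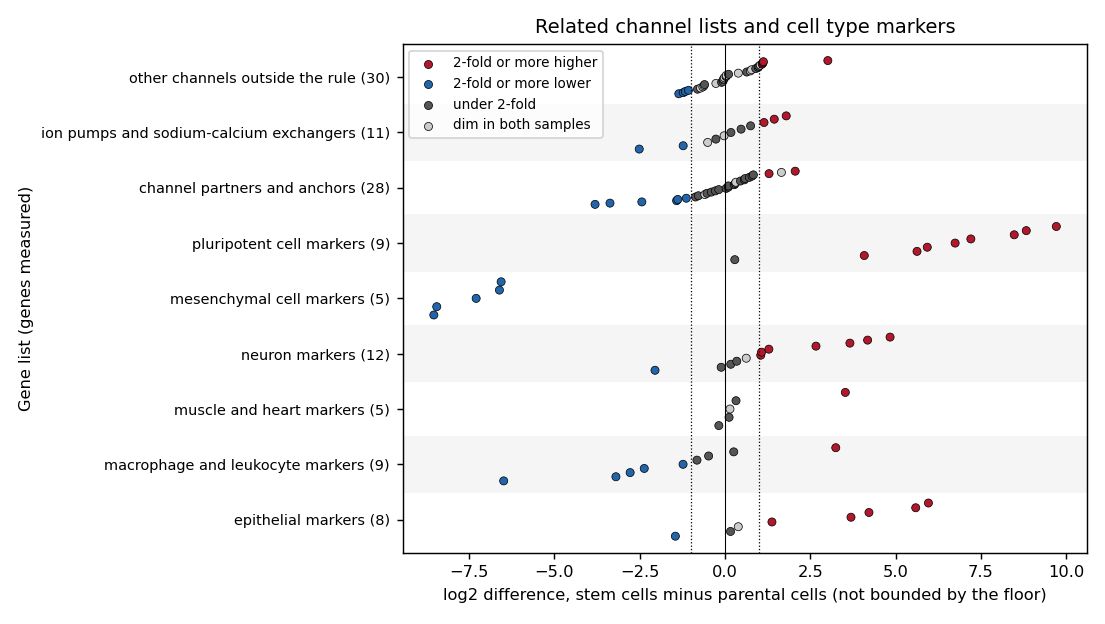
log2 difference, stem cells minus parental cells (horizontal axis), of the measured genes of the lists of related channels and of cell type markers, in rows by list with the number of genes in brackets; colours as in the plot by role and dotted lines mark 2-fold. Differences are not bounded by the floor. The 8 higher pluripotent cell markers lie at log2 4.08 to 9.71 and the 5 mesenchymal markers between -8.53 and -6.56. With the bound Pou5f1 is at 2.77 and Snai2 at -5.05. The channel lists stay mostly within 2-fold.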

How the data were processed

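Total RNA was extracted with Trizol and RNeasy columns, amplified and coupled to Cy5 dye for a Phalanx Mouse Whole Genome OneArray v2, per the labels' protocols. The deposited values are normalised intensities on a linear scale, from 16 to 65494 in the stem cells and from 15 to 65495 in the parental cells, with medians of 305 in the stem cells and 304 in the parental cells. Scanner, background correction and normalisation: not given in the sources used here. Medians this close mean that a difference in total RNA would not be seen. Values near the ceiling of a 16-bit scanner (65535) occur, but none in a channel gene.

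Of 13989 probes 12380 had 1 gene symbol, 0 had several and 1609 were not listed. Symbols were updated through Entrez identifiers (12364 probes; 16 kept the platform name) with a RefSeq table (GRCm38.p6). The channel genes kept their platform names. Intensities were brought to log2 and probes of a gene averaged (Python 3.11.15, pandas 2.3.3, numpy 2.4.6; lowess from statsmodels 0.14.6). Each group had 1 sample, so no test was made, no p-value is given, and precision is limited by the number of arrays. The computation was tested on simulated data.

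The genes named are every channel gene at 2-fold or more, up to 12 further genes with the brightest probes, 22 chosen by name of which 11 were measured, and, of the other lists, up to 3 at 2-fold or more each way with the largest bounded differences. The name rule, the roles, lists and named genes were chosen with earlier results of these data known.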

Additional observations from a re-analysis of the deposited data

How the results depend on the processing

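No paired analysis was possible because each group has 1 sample. Counts of channel genes stayed within 1.5 times the reported 17 higher and 13 lower under median centring, quantile normalisation, lowess centring (span 0.3), the brightest probe, an offset of 50, no floor, a floor at the 40th percentile, raising readings below the floor to it, updated symbols and counting probes. They did so too under 2 alternatives chosen after seeing the data, centring the 3 classes of probe identifiers and leaving out name-only matches. A 4-fold size rule without the bound gave 8 higher and 7 lower, and 734 and 1010 over all genes. With the bound the counts were 6 and 5, and 617 and 894 over all genes. The median log2 difference of 0.14 was 0.00 with readings below the floor raised to it and 0.47 with dim genes left out, an alternative chosen after seeing the data. Dim genes counted as 0.00 where readings were raised to the floor. The median over all genes with dim genes left out is not given here. With the 3 classes of probe identifiers centred the median over the channel genes was 0.07, and the median over all genes under that centring is not given here. Of the 30 genes at 2-fold or more, 25 kept their call in all 9 settings compared gene by gene. With the brightest probe 2 further genes counted as higher and 1 as lower. Kcnmb4 lost its call in 6, Grin2c and Trpm6 in 2 each, and Aqp12 and Chrnb3 in 1 each. No named gene at 2-fold or more changed sign. Signal over background limits the 41 dim genes, for which no difference can be stated. Dim was called on the mean of the probes of a gene. Aqp7, Cacnb1, Kcnj6 and Trpm3 were dim by this mean, although 1 probe of each passed the floor in 1 or both samples.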
